A study of Mus musculus with 4 samples.

Results

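Germ cells and feeder fibroblasts of the 2 vehicle libraries of mouse spermatogonial cultures were compared with each other, within each library. Each culture was set up to hold 2 kinds of cell that share a dish, spermatogonia and STO cells. Spermatogonia are the mitotic cells of the male germ line, and STO cells are a mouse embryonic fibroblast line used as the feeder layer beneath them. Whether somatic cells of the testis were also present was not tested. The cultures came from male pups at postnatal day 6, whose Thy1+ testis cells were selected with magnetic beads and grown on STO feeders in a serum-poor medium with GDNF and basic FGF. The vehicle cultures then received PBS for 3 days, and clumps of cells were dissociated into droplets for single-cell RNA sequencing. The other arm of the series received testis extracellular vesicles (EVs, 1 μg/mL, from postnatal day 7 testes) for 3 days on the same kind of culture, and its library EV 1 is used here for single values only. The labels give 2 vehicle libraries as biological replicates, and a culture was set up from the testes of 3 pups, so p-values measure only the spread between these 2 libraries, which may be technical.

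Spermatogonial stem cells renew themselves or move on to progenitors that will enter meiosis, and the balance depends on signals from surrounding somatic cells. GDNF, which signals through Ret and its co-receptor Gfra1, is the best known of these signals in the testis, and in culture a fibroblast layer and added growth factors stand in for the somatic cells. Germ cells keep a set of genes that somatic cells silence, among them the piRNA pathway that restrains transposons and the proteins of the meiotic chromosome axis. Fibroblasts are known for secreting collagens, matrix glycoproteins and growth factors.

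The cells were chosen by their measured levels of 8 marker genes. Captured RNA molecules, each tagged with a unique molecular identifier (UMI), of Dazl, Tex15, Stk31 and Epcam were summed to a germ sum, and those of Col1a1, Col1a2, Sparc and Dcn to a fibroblast sum, in barcodes with more than 400 and fewer than 4000 genes whose mitochondrial transcripts were under 10%. A barcode with at least 2 UMIs in 1 sum and more there than in the other was placed in that class. This gave 4854 germ and 2456 feeder cells in vehicle 1 and 5264 germ and 2619 feeder cells in vehicle 2, together 15193 of the 18230 vehicle barcodes that passed the filters and of the 24278 barcodes in the 3 libraries analysed here (vehicle 1, vehicle 2 and EV 1). Germ cells were 54.6% (95% Wilson interval 53.5 to 55.6) and 56.4% (55.4 to 57.4) of the filtered barcodes, and feeder cells were 27.6% and 28.1%. These intervals, like the others given here, cover counting error only. In vehicle 1 and vehicle 2, 1539 and 1426 barcodes had fewer than 2 UMIs in both sums and 47 and 25 had equal sums, and neither kind was used.

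The marker genes are described here without a test, since they chose the cells. Tex15, a germ cell gene of transposon silencing and meiosis, had 8334 and 10756 UMIs in the germ cells of the 2 libraries against 172 and 243 in feeder cells. Dazl, an RNA-binding protein of germ cells, had 7713 and 8884 against 166 and 191. Dcn, a small proteoglycan of connective tissue, had 1017 and 955 in germ cells against 17587 and 19984 in feeder cells. Both classes were checked at the threshold with 6 germ genes that the assignment did not use (Ddx4, Dnd1, Sall4, Mael, Tdrd5 and Taf4b). Cells with a germ sum of 2 and no fibroblast UMI held 472 and 476 CPM of these genes (UMIs of a gene per 1000000 UMIs), close to the 526 and 531 CPM of cells with a sum of 3 or more, while cells just outside with a germ sum of 1 held 433 and 458 CPM. On the fibroblast side, cells with a sum of 2 and no germ UMI held 19.8 and 23.7 CPM of the 6 germ genes, those with 3 or more held 9.42 and 9.47 CPM, and those just outside with a sum of 1 held 45.7 and 44.6 CPM. Feeder cells with any germ marker UMI (327 and 337 cells) held 96.9 and 76.5 CPM of the 6 germ genes, and within them the cells with a fibroblast sum of 2 and a germ sum of 1 (37 and 29 cells) held 161.1 and 164 CPM. Germ cells with any fibroblast marker UMI were more frequent (1227 and 1137 cells, 25.3% and 21.6% of the class) and held 255 and 281 CPM of 8 fibroblast genes outside the assignment, beside 194 and 180.2 CPM in germ cells with a sum of 3 or more and no fibroblast UMI.

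Feeder cells yielded more RNA per droplet than germ cells. Their median was 3646 and 3955 UMIs and 1776.5 and 1900 genes in vehicle 1 and vehicle 2, while germ cells had 1973.5 and 2136 UMIs and 1284 and 1387 genes. The germ-to-feeder ratio of the medians was 0.541 ± 0.00085 (SD, n = 2). Mitochondrial transcripts took 3.69% and 3.42% of germ UMIs against 2.17% and 1.90% of feeder UMIs, and ribosomal protein genes took 15.0% and 14.1% against 17.3% and 16.6%. UMIs of germ cells were less concentrated in their most abundant genes. Their first 50% came from 679 and 734 genes, those of feeder cells from 364 and 398 genes. Genes with at least 1 UMI were fewer in germ cells, at 22049 and 22411 against 22999 and 23388 in feeder cells.

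Summed UMIs of each class and library (10672314 and 12567131 for germ cells, 9965197 and 11512795 for feeder cells) were compared with edgeR's quasi-likelihood test, with the library as a block. Levels below are CPM scaled by TMM factors, given for vehicle 1 and then vehicle 2. Fold changes are log2 values of germ over feeder, and a gene was called where the adjusted p was under 0.05 and the log2 fold change exceeded 1 in either direction. Of 16667 genes tested, 4653 (27.9%) were called higher in germ cells and 4643 (27.9%) higher in feeder cells, so 55.8% of the genes tested separated the classes by that rule. With library totals in place of TMM factors the split was 5866 to 3679, because the median gene then sat at 0.38 on the log2 scale, and calls near the limit are to be read with that shift in mind. The classes were cut from these same cells by correlated marker genes, so a call describes how the classes differ and is not evidence that the classes exist.

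The separation was steep. Among the called genes, 1567 were higher in germ cells and 1454 higher in feeder cells by more than 3 on the log2 scale, and 656 and 625 by more than 4. The log2 ratio of a gene differed between vehicle 1 and vehicle 2 by a median of 0.107 over the 9892 genes with at least 200 UMIs in each library, and 45 of those differed by over 1. The spread between libraries was therefore small beside most of the differences named here, as the scatter of the 2 libraries shows.

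**Figure D1:**
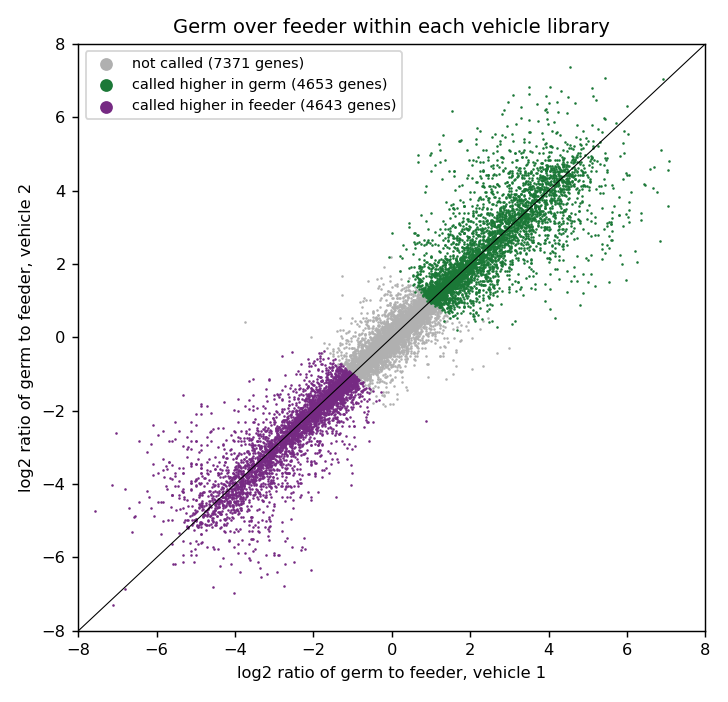
Log2 ratio of germ to feeder UMIs (TMM-scaled, 0.5 UMI added) in vehicle 1 on the x axis and vehicle 2 on the y axis, 1 point per tested gene, coloured by call, with the line of equal ratios. The 4653 genes called higher in germ cells and the 4643 called higher in feeder cells lie along the line, and points far from it are genes with few UMIs or with 1 library apart.

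How low a level can be read in the other class was measured first, since droplets hold free RNA and sometimes 2 cells. The 6 germ genes outside the assignment summed to 26.4 and 23.2 TMM-scaled CPM in feeder cells, 5.79% and 5.15% of their level in germ cells. On library totals these shares were 4.46% and 3.94%. Also on library totals, the share was 1.97% and 1.99% in cells without any UMI of the other class's 4 markers, and 3.12% and 2.54% after removal of doublets by Scrublet. The 4 Y-linked genes of the lists (Ddx3y, Eif2s3y, Kdm5d and Uty) reached 4.87% and 4.13% of their germ level in feeder cells on the TMM scale. On library totals this was 3.74% and 3.16%, and 1.36% and 1.28% in the cells without the other markers. Among the 662 genes called higher in germ cells with at least 1000 germ UMIs in each library, the lowest TMM-scaled feeder level was 2.84% of the germ level in vehicle 1 (Stra8) and 2.86% in vehicle 2 (C1ql1). Among 692 such feeder genes the lowest germ level was 2.60% (Emp1) and 1.82% (1500015L24Rik). A TMM-scaled level at or below about 6% of that in the other class is therefore read here as background, and it limits the largest folds that can be measured. The 8 fibroblast genes outside the assignment (Col3a1, Col5a1, Col5a2, Col6a1, Fn1, Lox, Thbs1 and Postn) stood higher in germ cells, at 9.91% and 9.02% of their feeder level on the TMM scale (12.9% and 11.8% on library totals). Fn1 and Col5a1, whose levels are given below, made up most of that germ sum, so the pooled share does not hold for each member. What the background is made of was not tested.

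**Figure D2:**
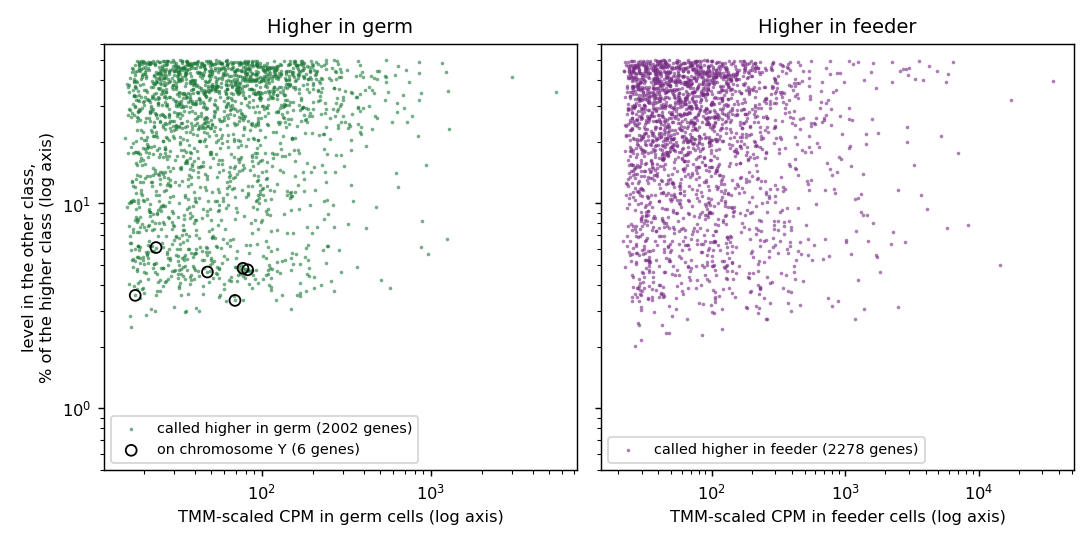
Level in the lower class as a percentage of the higher class (y, log axis) against the level in the higher class in TMM-scaled CPM (x, log axis), as means of the 2 vehicle libraries, for the 2002 genes called higher in germ cells (left) and the 2278 called higher in feeder cells (right) with at least 200 UMIs in the higher class in each library. The lowest points lie near 2% to 3% on both sides, except at the highest levels, where there are few genes and all lie higher, and the 6 genes on chromosome Y, circled, lie in the lower part.

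Genes that mark germ cells separated the classes without exception in the list used. All 15 tested members of the germ cell identity list were called higher in germ cells, with a median log2 fold change of 4.14 against 0.00 over all genes tested. Counts of called members in this list and in those that follow are to be read against 27.9% of all genes tested in each direction. Ddx4, the germ cell RNA helicase also called Vasa (chr13:112598333-112652475, mouse GRCm38), stood at 115 and 110.3 CPM in germ cells and 4.74 and 3.83 CPM in feeder cells. Its log2 fold change was 4.72 (SE 0.095, adjusted p = 2.9e-69). Sycp3, a component of the meiotic chromosome axis, stood at 187 and 188 CPM in germ cells and 9.83 and 10.1 CPM in feeder cells. Rnf17, a Tudor protein of germ granules, had 121 and 120.2 against 3.47 and 4.72 CPM. The smallest differences in the list belonged to Piwil4, a partner of piRNAs in fetal germ cells (8.06 and 6.06 against 2.43 and 2.16 CPM, log2 1.61), and Nanos3, an RNA-binding regulator (9.97 and 8.33 against 2.196 and 1.87 CPM, log2 2.16). Tex14, of the bridges between germ cells, was the member with the highest level in feeder cells, at 333 and 339.5 against 83.6 and 53.5 CPM, and its feeder level differed between the libraries more than its germ level did.

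The piRNA and germ granule list behaved much like the identity list, with which it shares 6 genes. Of its 16 tested members 14 were called higher in germ cells and none in feeder cells. Tdrd1, a scaffold of the piRNA machinery, had 92.9 and 96.5 against 4.05 and 3.74 CPM. Mael, another piRNA factor, had 69.4 and 71.4 against 3.24 and 3.64 CPM. Tdrd7 was not called (31.6 and 34.01 against 58.8 and 61.8 CPM, log2 -0.88), nor was Tdrd9, which stood at or below 1.2 CPM in both classes. Fkbp6 passed narrowly at 1.99 and 1.38 against 1.27 and 0.393 CPM (log2 1.06, adjusted p = 1.9e-02), and that call was lost in cells without the other class's markers (log2 0.60), after removal of doublets (0.90) and with DESeq2 in place of edgeR, where the log2 fold change was 1.19 and the adjusted p 0.254.

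Meiotic genes were transcribed in the germ cells. Of 16 tested, 15 were called higher in germ cells, with a median log2 fold change of 4.12. Smc1b, the meiotic cohesin subunit, stood at 503 and 511 CPM in germ cells and 20.6 and 22.2 CPM in feeder cells. After thinning of every cell to 1000 UMIs it was seen in 41.6% and 42.4% of germ cells and 1.86% and 1.95% of feeder cells of vehicle 1 and vehicle 2. Stra8, a retinoic acid target at the entry into meiosis (chr6:34920163-34939344), had 150.5 and 147 against 4.28 and 4.82 CPM, and a UMI was seen in 15.1% and 14.3% of thinned germ cells against 0.338% and 0.312% of feeder cells. Syce2, of the synaptonemal complex, had 246 and 244 against 15.8 and 14.6 CPM, and Hormad1, which monitors chromosome axes, had 46.01 and 43.6 against 1.85 and 1.38 CPM. Meiob, which acts in later recombination, was not called at 1.91 and 2.34 against 0.925 and 1.87 CPM, and Sycp1, which bridges the paired axes of the synaptonemal complex, was at or below 0.9 CPM in both classes and was not tested.

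The sequence before the start site is shown for 5 genes, picked as examples and not as typical of their direction. Ddx4 and Mael are from the germ granule list, Stra8 from the meiotic list, and Col3a1 and Spp1 from the feeder side. Each sequence is the 250 bases before the RefSeq start in GRCm38, 5′ to 3′ on the gene's strand. Capitals mark the letters CACGTG, the E-box core of the Myc and Max family, and GGCGGGA, an E2F type core, searched on both strands, so that TCCCGCC is the second motif on the other strand.
Ddx4: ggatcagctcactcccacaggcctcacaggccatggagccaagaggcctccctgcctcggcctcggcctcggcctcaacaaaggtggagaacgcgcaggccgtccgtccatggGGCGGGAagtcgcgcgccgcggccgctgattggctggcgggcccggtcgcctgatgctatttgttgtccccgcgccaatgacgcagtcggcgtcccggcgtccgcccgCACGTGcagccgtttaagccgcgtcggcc
Mael: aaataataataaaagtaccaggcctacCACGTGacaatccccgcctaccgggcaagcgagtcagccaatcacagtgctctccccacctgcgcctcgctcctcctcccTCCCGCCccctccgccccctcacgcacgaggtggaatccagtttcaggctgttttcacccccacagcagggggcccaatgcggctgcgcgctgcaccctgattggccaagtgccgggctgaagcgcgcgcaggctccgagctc
Stra8: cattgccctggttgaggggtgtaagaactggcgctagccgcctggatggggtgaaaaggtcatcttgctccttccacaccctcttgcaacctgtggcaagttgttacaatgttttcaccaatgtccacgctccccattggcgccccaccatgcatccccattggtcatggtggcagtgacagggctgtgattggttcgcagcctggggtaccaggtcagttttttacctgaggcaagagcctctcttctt
Col3a1: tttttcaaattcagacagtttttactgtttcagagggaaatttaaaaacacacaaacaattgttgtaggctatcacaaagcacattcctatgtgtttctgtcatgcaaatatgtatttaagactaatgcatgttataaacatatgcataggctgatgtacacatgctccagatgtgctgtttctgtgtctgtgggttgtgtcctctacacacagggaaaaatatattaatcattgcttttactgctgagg
Spp1: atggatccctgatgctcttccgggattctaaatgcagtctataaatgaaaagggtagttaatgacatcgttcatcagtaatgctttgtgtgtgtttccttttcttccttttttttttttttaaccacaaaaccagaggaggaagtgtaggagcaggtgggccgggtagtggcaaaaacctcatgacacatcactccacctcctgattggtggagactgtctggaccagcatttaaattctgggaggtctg
They lie at chr13:112652311-112652560, minus strand for Ddx4, chr1:166238745-166238994, minus strand for Mael, chr6:34920698-34920947, plus strand for Stra8, chr1:45311288-45311537, plus strand for Col3a1 and chr5:104434861-104435110, plus strand for Spp1. RefSeq and GENCODE start some of these genes at different bases, so that all 250 bases of the Stra8 window, 165 of the Ddx4 window and 3 of the Mael window lie inside the GENCODE span of the gene. The Spp1 window is the first of 2 in the RefSeq table. Ddx4 and Mael held both motifs once each and 31 and 18 CpG dinucleotides, Stra8 held neither motif and 5 CpG, and Col3a1 and Spp1 held neither and 0 and 3 CpG. Of the 13 piRNA and germ granule genes with a RefSeq window (of 16 tested), 6 held CACGTG in the 300 bases around the start. The same letters were in 4 of 13 meiotic genes with a window (of 16), 0 of 12 collagen genes (of 14) and 1 of 17 contractile and adhesion genes (of 19). GGCGGGA was in 2, 2, 6 and 2 of them, and the 2 germ granule genes with it were Ddx4 and Mael. Both motifs together were in 1.18% of all windows of the RefSeq table. Among the other lists of over 10 genes with a window for at least 80% of those tested, CACGTG was in 0 of 18 mitosis genes, 1 of 18 DNA replication genes, 3 of 15 methylation genes, 2 of 18 glycolysis genes and 1 of 16 niche ligands, and GGCGGGA in 5, 8, 8, 6 and 3 of them. A gene was counted where any of its windows held the letters, and counted in that way 8.09% of all 27025 genes of the RefSeq table held CACGTG and 12.7% held GGCGGGA. Only 74.2% of the genes tested had a window, so no share over the called genes is given, and a match in letters is no binding site.

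The stem cell genes with which the study annotated its clusters were all called higher in germ cells, 5 of 5. Zbtb16, a zinc finger repressor needed for self-renewal (chr9:48654297-48836222), stood at 149 and 147 CPM in germ cells and 8.44 and 7.67 CPM in feeder cells (log2 4.203, SE 0.077, adjusted p = 6.9e-73). Ret, the GDNF receptor kinase, had 85.6 and 90.9 against 3.699 and 4.23 CPM, and Gfra1, its co-receptor, which is outside that list, 180.4 and 186 against 10.6 and 11.5 CPM. Lhx1, a GDNF target, had 37.4 and 42.1 against 1.503 and 2.36 CPM, and Bcl6b 15.5 and 15.2 against 1.04 and 0.787 CPM. Etv5, a GDNF- and FGF-dependent factor, was the member least confined to germ cells at 97.3 and 97.9 against 20.1 and 17.6 CPM (log2 2.38), and its feeder level was above background.

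The progenitor genes of the same annotation ran the other way. Of 3, none was called higher in germ cells and 2 were called higher in feeder cells. Upp1, a uridine phosphorylase, stood at 6.73 and 5.64 CPM in germ cells and 81.04 and 75.2 CPM in feeder cells (log2 -3.66, adjusted p = 2.2e-60). Rarg, a retinoic acid receptor, had 5.48 and 5.58 against 37.7 and 33.3 CPM (log2 -2.67). Rara, a related receptor, had 18.9 and 19.1 against 36.99 and 37.7 CPM and a log2 fold change of -0.97, just short of the limit, and it passed with a marker minimum of 3 UMIs (log2 -1.02). The 3 genes summed to 31.1 and 30.3 CPM in germ cells against 156 and 146 CPM in feeder cells, so most of their signal per UMI in these cultures came from the feeder class. Neurog3 (Ngn3), a progenitor gene that the study followed by real-time PCR, is outside that annotation. It had 7 and 6 UMIs in germ cells and 0 and 1 in feeder cells, too few to be tested.

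Of the fibroblast genes of that annotation, 4 of 6 tested were called higher in feeder cells and 1 in germ cells. Ly6c1 (10.3 and 7.43 against 227 and 218 CPM), Pdgfra, a receptor of PDGF (7.89 and 9.64 against 193 and 190.4 CPM), Pdpn (15.9 and 11.3 against 93.3 and 96.8 CPM) and Col4a1 (9.63 and 8.05 against 86.8 and 94.99 CPM) were on the feeder side. Cd24a, a surface glycoprotein, was on the germ side at 58.5 and 52.5 CPM in germ cells and 2.43 and 2.36 CPM in feeder cells (log2 4.52). Epcam, an adhesion molecule of epithelia and of spermatogonia that the annotation also lists among fibroblast genes, had 543 and 536 against 14.2 and 16.5 CPM, but it is 1 of the 8 assigning genes here and was not tested. Aifm2 was not called at 8.47 and 7.92 against 13.3 and 10.4 CPM, and Ly6c2 was at or below 0.6 CPM.

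**Figure D3:**
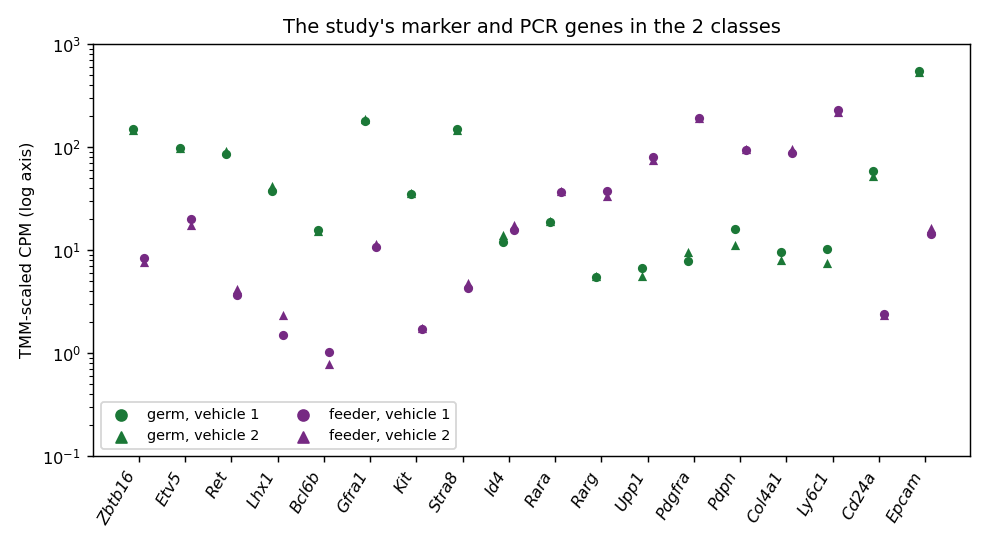
TMM-scaled CPM (y, log axis) of the study's marker and real-time PCR genes in germ cells (green) and feeder cells (purple) of vehicle 1 (circles) and vehicle 2 (triangles). Stem cell genes from Zbtb16 to Bcl6b lie higher in germ cells, Rarg and Upp1 lie higher in feeder cells, Id4 lies at 12.1 to 17.6 CPM in both, and Cd24a and Epcam lie with the germ genes. Neurog3, Aifm2, Ly6c2 and Col1a1 are not drawn.

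Among regulators of undifferentiated spermatogonia, 17 of 19 tested were called higher in germ cells. The list holds 4 of the 5 stem cell genes above (Zbtb16, Bcl6b, Lhx1 and Etv5) and 3 of the identity list (Sall4, Lin28a and Nanos2), and of the 12 in neither, 10 were called higher in germ cells. Pou3f1, a GDNF-responsive POU factor, had 107 and 103 against 5.09 and 4.33 CPM. Utf1 had 5.98 and 6.13 against 0 and 0.197 CPM, at 0 UMIs in feeder cells of vehicle 1. Foxo1, which is nuclear in stem cells and widely expressed elsewhere, passed by the smallest margin at 78.8 and 89.97 against 40.6 and 39.6 CPM (log2 1.08). Id4, a marker of the stem cell state that the study followed by real-time PCR, was not called: it stood at 12.1 and 13.97 CPM in germ cells and 15.8 and 17.6 CPM in feeder cells (log2 -0.36), and with library totals the difference was 0.03. After thinning, 1.53% and 1.495% of germ cells and 1.23% and 1.48% of feeder cells had an Id4 UMI. Egr3, an immediate early factor, was called higher in feeder cells at 1.66 and 1.38 against 4.86 and 3.64 CPM, and this was lost among cells of 1500 to under 4000 UMIs (log2 -0.66).

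Of 12 tested receptors and surface proteins of spermatogonia, 8 (66.7%) were called higher in germ cells, 2 in feeder cells and 2 in neither. Mcam had 48.01 and 46.5 against 2.89 and 2.85 CPM, and Cdh1 3.07 and 3.65 against 1.27 and 0.688 CPM, both called higher in germ cells. Kit, the receptor of differentiating spermatogonia, had 34.7 and 35.7 against 1.73 and 1.77 CPM. Itga6 was shared, at 72.5 and 68.2 against 73.8 and 75.5 CPM (log2 -0.09), as was Cd9, at 310.1 and 299.8 against 249 and 235 CPM (log2 0.34), and neither was called. Itgb1 was called higher in feeder cells (155 and 163 against 320.4 and 352 CPM, log2 -1.08), though not with library totals (-0.70). Thy1, the antigen by which the starting cells had been selected, was also called higher in feeder cells, at 7.89 and 5.71 CPM in germ cells and 35.6 and 30.97 CPM in feeder cells (log2 -2.301, adjusted p = 1.6e-35).

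The genes with the largest ratios in germ cells, by the smaller of the 2 libraries, were Psma8, Pmaip1, Stra8, Tro, Spint1, Klf8, Xlr5c, Ina, Nxf2, Syce1, Sohlh2 and Ccdc88c. Their log2 ratios ran from 4.73 to 5.45 over both libraries. Nxf2, a germ cell RNA export factor on chromosome X (chrX:134944526-134964754), was the most abundant at 169 and 167 against 5.896 and 5.998 CPM. Psma8, the subunit of the testis proteasome, had 260 and 283 UMIs in germ cells and 5 and 6 in feeder cells. Sohlh2, a bHLH factor of differentiating spermatogonia, had 75.6 and 78.5 against 2.77 and 2.46 CPM, and Syce1, of the synaptonemal complex, 68.4 and 69.04 against 2.43 and 2.46 CPM. Of the 12, 4 lie on chromosome X (Tro, Klf8, Xlr5c and Nxf2). These ratios lie at the background level, so the order among them carries little.

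By absolute level, the largest excess in germ cells was in Ptma, a chromatin-associated acidic protein (5478 and 5461 against 1887 and 1921 CPM), and Rpl35a, a ribosomal protein (3194 and 2833 against 1312 and 1171 CPM). Hells, a chromatin remodeller that works with DNA methylation (chr19:38930915-38971051), followed at 1268 and 1232 CPM in germ cells and 86.5 and 80.6 CPM in feeder cells (log2 3.905, SE 0.044), and after thinning it was seen in 74.2% and 75.7% of germ cells and 6.21% and 5.97% of feeder cells. Glis3, a zinc finger factor required for spermatogonia, had 1239 and 1307 against 300.2 and 288 CPM. Auts2, a chromatin regulator best known in neurons, had 933 and 979 against 53.1 and 55.7 CPM and was seen in 58.4% and 60.7% of thinned germ cells against 3.59% and 3.67% of feeder cells. Snrpg, a splicing protein, had 1320.5 and 1216 against 485 and 413 CPM.

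Of 15 DNA and histone methylation genes, 5 (33.3%) were called higher in germ cells and 1 (6.67%) in feeder cells, beside 27.9% of all genes tested in each direction, so the germ count is near the background. Uhrf1, which brings maintenance methylation to replicated DNA, had 140.4 and 143 against 16.2 and 16.5 CPM, and Dnmt1, the maintenance methyltransferase, 227 and 243 against 62.9 and 67.8 CPM. Dnmt3b had 22.9 and 26.6 against 2.66 and 3.54 CPM and Ezh2 174 and 181 against 47.3 and 48.97 CPM, while Dnmt3a was not called at 36.05 and 38.7 against 40.5 and 43.2 CPM. Tet2, an oxidase of methylcytosine, was on the feeder side at 3.24 and 4.34 against 79.5 and 73.6 CPM (log2 -4.31).

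Proliferation genes were higher in germ cells, and cell cycle inhibitors were divided between the classes. Of 20 DNA replication genes, 15 were called higher in germ cells and none in feeder cells, and of 20 mitosis genes, 19 and none. Cenpf, a kinetochore protein, had 858 and 884 CPM in germ cells and 48.9 and 58.01 CPM in feeder cells. Top2a had 628 and 646 against 71.2 and 81.6 CPM, Mki67 322 and 366 against 30.3 and 40.3 CPM and Ccnb1, the mitotic cyclin, 163 and 156 against 8.21 and 9.93 CPM. Mcm3, of the replicative helicase, had 161 and 167 against 17.5 and 22.8 CPM. Cdk1 was not called (75.4 and 73.7 against 42.8 and 44.8 CPM, log2 0.76), although it passed among cells of 1500 to under 4000 UMIs (1.62) and with library totals (1.15). Several of these genes were above background in feeder cells. Top2a in feeder cells stood at 71.2 and 81.6 CPM, and thinned cells with a UMI were 42.9% and 42.6% of germ cells and 4.22% and 3.82% of feeder cells.

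Of 12 D cyclins, their kinases and CDK inhibitors, 2 were called higher in germ cells and 6 (50.0%) in feeder cells, beside 27.9% of all genes tested in each direction. Cdkn1a, the p21 inhibitor of CDKs, stood at 63.04 and 63.4 CPM in germ cells and 1061 and 1157 CPM in feeder cells (log2 -4.14, adjusted p = 1.6e-94). Ccnd1, cyclin D1, was also high in feeder cells (165 and 171 against 1099 and 1108 CPM), as was Cdk6 (28.2 and 30.9 against 221 and 223 CPM), while Ccnd2 was shared at 478 and 489 against 386 and 403 CPM. In germ cells the inhibitors were others. Cdkn1c, the imprinted p57, had 200.0 and 204 against 8.09 and 7.47 CPM, and Cdkn2a, of the Ink4a/Arf locus, 108 and 99.9 against 22.4 and 21.6 CPM.

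**Figure D4:**
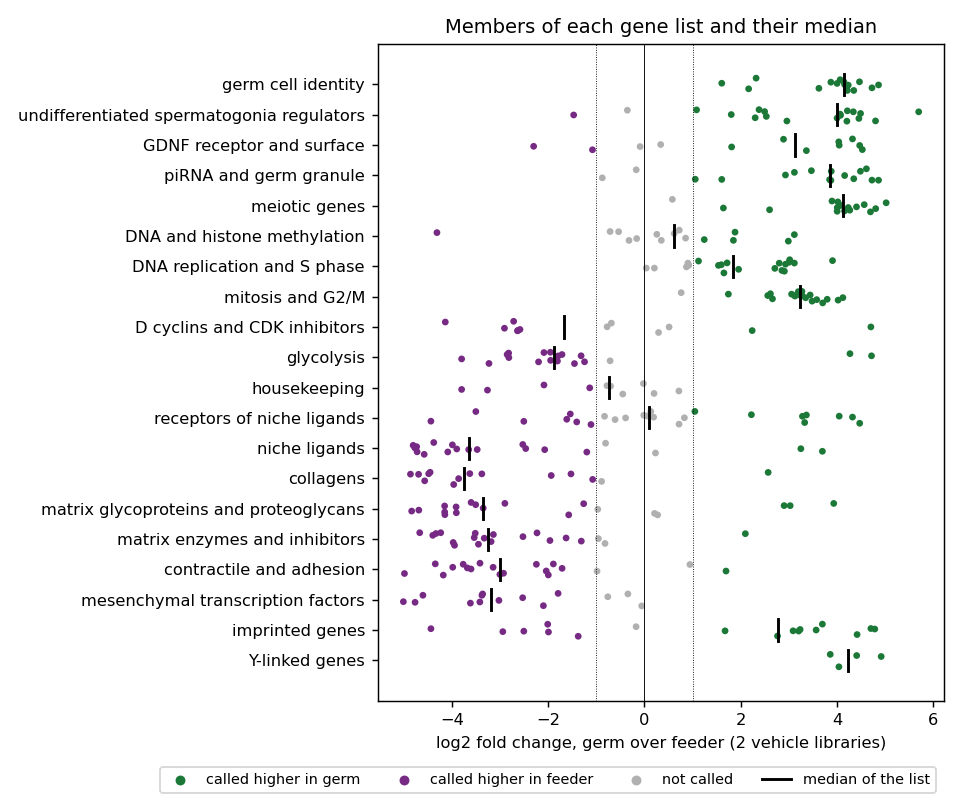
Log2 fold change of germ over feeder cells (x) for the tested members of 20 gene lists (y), 1 point per gene, coloured by call, with a black bar at the median of each list and dotted lines at 1 and -1. Germ, piRNA, meiotic, mitotic and Y-linked lists lie to the right, with medians from 3.24 to 4.22 for these, and niche ligand, collagen, other matrix, contractile and mesenchymal factor lists lie to the left, with medians from -3.74 to -3.002.

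Feeder cells carried the matrix programme of fibroblasts. Of 14 collagen genes tested, 12 were called higher in feeder cells and 1 in germ cells. Col3a1, a fibrillar collagen, stood at 9.63 and 9.22 CPM in germ cells and 203 and 209 CPM in feeder cells (log2 -4.45). Col6a1 had 10.05 and 9.64 against 119 and 124 CPM, and Col5a1 was nearer to the limit at 33.4 and 33.04 against 70.7 and 69.3 CPM (log2 -1.08), a call lost with library totals (-0.69). Among 19 matrix glycoproteins and proteoglycans 13 were called higher in feeder cells, led in level by Fn1, fibronectin, at 124 and 114 CPM in germ cells and 1331 and 1369 CPM in feeder cells. Bgn, biglycan, had 27.8 and 25.1 against 471 and 464 CPM and Vcan, versican, 9.47 and 8.54 against 217 and 243 CPM. Of 20 matrix enzymes and inhibitors 17 were called higher in feeder cells, among them Timp2, an inhibitor of metalloproteinases (41.5 and 32.4 against 706 and 671 CPM), Mmp3, stromelysin (12.96 and 9.36 against 214 and 228 CPM), and Serpinh1, the collagen chaperone (28.7 and 29.5 against 255 and 258 CPM).

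Some matrix genes were higher in germ cells. Col18a1, a collagen of basement membranes, had 38.04 and 36.6 CPM in germ cells and 5.896 and 6.59 CPM in feeder cells (log2 2.57, adjusted p = 2.1e-38). Nid2, a linker of basement membranes, had 40.9 and 43.1 against 6.24 and 5.11 CPM, Fbln1, fibulin 1, 61.2 and 66.6 against 6.94 and 8.65 CPM, and Fbn2, fibrillin 2, 36.2 and 35.5 against 2.89 and 1.87 CPM. Loxl2, a lysyl oxidase, had 5.73 and 6.54 against 1.503 and 1.38 CPM. These 5 were the called germ members among 53 tested genes of the 3 matrix lists, beside 42 called higher in feeder cells. The feeder level of Fbn2 was 7.98% and 5.27% of its germ level, and those of the other 4 were 11.3% to 26.2%.

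Contractile, adhesion and mesenchymal regulators were on the feeder side, 16 of 19 and 11 of 14. Vim, the intermediate filament of mesenchymal cells, stood at 155 and 125 CPM in germ cells and 2194 and 2203 CPM in feeder cells (log2 -3.98), and Lgals1, a galectin, at 424 and 351 against 4291 and 3951 CPM. Cald1, which binds actin and tropomyosin, had 43.6 and 40.4 against 729.7 and 783 CPM, and Anxa1 26.8 and 23.7 against 806 and 788 CPM (log2 -4.98). Cnn1 was the contractile gene called on the germ side, at 0.3 to 1.2 CPM, and DESeq2 did not call it. Among transcription factors, Hmga2, an architectural protein of proliferating mesenchyme (chr10:120361275-120476469), had 74.7 and 79.2 CPM in germ cells and 2448 and 2502 CPM in feeder cells (log2 -5.01, SE 0.044) and was seen in 73.004% and 73.6% of thinned feeder cells against 5.74% and 5.15% of germ cells. Prrx1 had 15.5 and 13.8 against 391 and 402 CPM, and Twist1, at 30.6 and 29.1 against 129 and 127 CPM, was also on the feeder side. Zeb1 was not called (90.03 and 99.9 against 162 and 161 CPM, log2 -0.76).

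The genes with the largest ratios in feeder cells were 8430419K02Rik, Adamts12, Pcdh7, Meis2, Gm15987, Pcdh9, Tafa1, Gm14636, Trim30d, Tmprss11f, 1500015L24Rik and Csmd3, with log2 ratios from -5.002 to -5.82 over both libraries. Pcdh7, a protocadherin (chr5:57717967-58133230), was by far the most abundant of them at 31.4 and 33.9 CPM in germ cells and 1156 and 1235 CPM in feeder cells, and it was seen in 51.8% and 53.8% of thinned feeder cells against 2.34% and 1.98% of germ cells. Meis2, a homeobox partner of Hox proteins, had 6.73 and 7.16 against 249 and 259 CPM, and Pcdh9, another protocadherin, 6.31 and 7.78 against 240.0 and 276 CPM. Gm15987 is annotated as antisense, and its reads cannot be told from those of an overlapping gene unless strand was used in counting, which is not given in the sources used here. In level, the largest excess in feeder cells was in Malat1, a nuclear noncoding RNA (13795 and 14646 against 34014 and 37921 CPM), and Spp1, osteopontin (chr5:104435118-104441050). Spp1 stood at 821 and 623 CPM in germ cells and 14829.5 and 14104 CPM in feeder cells (log2 -4.34), and after thinning it was seen in 95.01% and 94.3% of feeder cells and still in 57.6% and 46.7% of germ cells. Its germ level was 5.54% and 4.42% of the feeder level on the TMM scale. The 8 fibroblast genes, pooled, stood at 9.91% and 9.02% in germ cells, mostly through Fn1 and Col5a1. Single members such as Col3a1 lay below that pooled share, as Spp1 did. Fth1, ferritin heavy chain (5784 and 5336 against 18096 and 16734 CPM), S100a6 (729 and 582 against 8788 and 7907 CPM), Tpt1 (1324 and 1168 against 7216 and 6876 CPM) and Ctsl, the lysosomal protease cathepsin L (477 and 407 against 5921 and 5676 CPM), followed. The call of Malat1 was lost with library totals (log2 -0.95).

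Ligands that act on spermatogonia were mostly higher in the feeder cells. Of 19 ligands tested, 15 were called higher in feeder cells and 2 in germ cells. Gdnf, the main self-renewal factor, stood at 0.997 and 0.551 CPM in germ cells and 19.999 and 20.3 CPM in feeder cells (log2 -4.72, adjusted p = 6.5e-39), with 12 and 8 UMIs in germ cells and 173 and 206 in feeder cells. Its receptors Ret and Gfra1 lay on the germ side, as given above. Kitl, the Kit ligand, had 6.15 and 5.99 against 101 and 105 CPM, opposite to Kit. Fgf7 had 5.48 and 5.03 against 143 and 143 CPM, Fgf2 2.66 and 1.79 against 13.6 and 11.8 CPM, Lif 2.16 and 3.58 against 50.4 and 43.7 CPM, Csf1 9.302 and 8.67 against 135 and 133 CPM, and Cxcl12, the ligand of Cxcr4, 1.91 and 1.24 against 18.5 and 20.4 CPM. Cxcr4 itself was low but on the germ side at 2.99 and 2.41 against 0.347 and 0.197 CPM (log2 3.28). Igf1 had 1.08 and 1.03 against 28.1 and 31.1 CPM, whereas Igf2 lay on the germ side at 4.9002 and 6.26 against 0.462 and 0.393 CPM, and Bmp4 did too, at 2.49 and 1.79 against 0.231 and 0.197 CPM.

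Counts of receptors were near the background. Of 24 tested, 8 (33.3%) were called higher in germ cells, 7 (29.2%) in feeder cells and 9 in neither, beside 27.9% of all genes tested in each direction, and the median log2 fold change was 0.09. Erbb3, a neuregulin receptor, had 12.1 and 14.5 against 1.04 and 1.57 CPM and Fgfr3 3.07 and 3.65 against 0.462 and 0.197 CPM, both on the germ side. Fgfr2 was shared at 92.9 and 100.4 against 97.2 and 98.4 CPM (log2 -0.01), and Fgfr1 was called higher in feeder cells at 88.1 and 96.2 against 195 and 204 CPM (log2 -1.11), though not with library totals (-0.73) or among cells of 1500 to under 4000 UMIs (-0.94). Lifr, at 14.4 and 14.9 against 14.7 and 13.7 CPM, and Igf1r, at 237 and 239 against 216 and 218 CPM, were not called. Igf2r, which clears Igf2 to lysosomes, was on the feeder side at 52.6 and 59.7 against 312 and 327 CPM, as was Pdgfrb at 1.08 and 1.58 against 16.6 and 14.5 CPM.

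Glycolysis was higher in feeder cells, with 15 of 18 tested genes called there and a median log2 fold change of -1.88. Pgk1, phosphoglycerate kinase, stood at 183 and 148 CPM in germ cells and 2315 and 2266 CPM in feeder cells (log2 -3.796), and Ldha, lactate dehydrogenase A, at 195 and 180.4 against 1343 and 1361 CPM. Gapdh had 695 and 669.9 against 2918 and 2879 CPM. Aldoc, the aldolase best known in brain, and Slc16a3, a lactate exporter, were the members called on the germ side, at 20.4 and 19.3 against 1.04 and 0.492 CPM and 15.7 and 15.4 against 0.694 and 0.885 CPM. Hk2 was not called (71.2 and 69.2 against 113 and 117 CPM). Of the 10 genes often taken as constant that are reported here, 4 (40.0%) were called higher in feeder cells, beside 27.9% of all genes tested, and none in germ cells. B2m, the light chain of MHC class I, had 133 and 114 against 1200.2 and 1152 CPM, Actb 1286 and 1185 against 2767 and 2662 CPM and Ppia 1696 and 1588 against 2736 and 2612 CPM, the last not called (log2 -0.704). Actb fell short with library totals (-0.75) and among cells of 1500 to under 4000 UMIs (-0.77).

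Of 17 imprinted genes tested, 10 (58.8%) were called higher in germ cells and 6 (35.3%) in feeder cells, beside 27.9% of all genes tested in each direction, so the feeder count is near the background. Dlk1, a paternally expressed Notch-like ligand, was the most abundant at 89.4 and 81.4 CPM in germ cells and 1799.7 and 1880.2 CPM in feeder cells (log2 -4.43). Meg3, the maternally expressed RNA of the same locus, was on the other side at 14.5 and 16.5 against 2.08 and 2.46 CPM. Cdkn1c, Ndn (17.4 and 19.1 against 0.925 and 0.787 CPM) and Peg10 (8.47 and 9.57 against 0.231 and 0.393 CPM) were on the germ side. Peg3 was called higher in feeder cells (32.1 and 33.7 against 86.8 and 84.5 CPM, log2 -1.38), a call lost by a margin with library totals (-0.99). These are sums over both parental copies, which cannot be told apart here.

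The 4 Y-linked genes of the list were all called higher in germ cells. Eif2s3y, a translation factor needed in spermatogonia, had 69.2 and 69.3 CPM in germ cells and 2.89 and 1.77 CPM in feeder cells (log2 4.92), Uty 48.3 and 46.9 against 1.85 and 2.56 CPM, Ddx3y 22.3 and 24.99 against 1.503 and 1.38 CPM and Kdm5d 14.7 and 13.4 against 1.27 and 0.688 CPM. Summed, their feeder level was 4.87% and 4.13% of the germ level on this TMM scale. The background given above was set in part from these same shares, so they cannot be judged against it. In vehicle 1 the shares of Ddx3y and Kdm5d lay above the summed share and those of Eif2s3y and Uty below it. Whether feeder cells transcribe these genes was not tested. Xist, the noncoding RNA of an inactive X chromosome, was at 0.3 to 1.1 CPM in both classes. Hprt, a purine salvage enzyme on chromosome X, matters for STO because the line was selected for resistance to thioguanine, a trait that goes with loss of that enzyme. Its transcript stood at 90.1 and 83.2 CPM in germ cells and 197 and 188 CPM in feeder cells (log2 -1.15), called higher in feeder cells but not with library totals (-0.77). A UMI level gives the amount of transcript and says nothing of the protein.

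Medians by chromosome were taken next. Of 16667 tested genes, 16656 had a position in GENCODE vM21 (GRCm38). Chromosome 14 had a median log2 fold change of -0.73 over 542 genes (-0.74 and -0.75 as log2 ratios of vehicle 1 and vehicle 2), with 43.7% of its genes called higher in feeder cells and 17.9% in germ cells. Chromosome 19 had 0.59 over 604 genes, with 40.9% called higher in germ cells, and chromosome 16 had 0.52 over 496 genes. Chromosome X was divided, with 32.5% of 576 genes called higher in germ cells and 36.8% in feeder cells. To set aside genes of 1 class, the medians were also taken over the 5358 genes at 20 CPM or more in both classes. There chromosome 14 stood at -0.57 (133 genes), X at -0.77 (161 genes), 5 at -0.35 (385 genes), 16 at 0.38 (164 genes) and 19 at 0.51 (224 genes), against -0.04 over all. Chromosome copy number was not measured in either cell type.

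**Figure D5:**
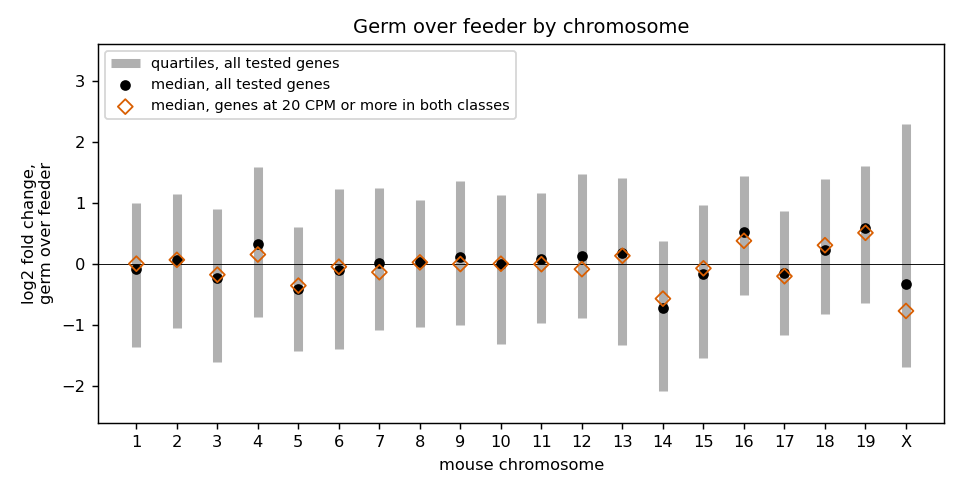
Log2 fold change of germ over feeder cells (y) by mouse chromosome (x): black points are medians over all tested genes, grey bars run between the quartiles, and open diamonds are medians over genes at 20 CPM or more in both classes. Among genes at 20 CPM or more in both classes, chromosomes 14 and X lie lowest of those drawn (-0.57 and -0.77) and 16 and 19 highest (0.38 and 0.51), and chromosome Y, with 10 tested genes and a median of 4.39, is not drawn.

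Markers of other testis cells were looked for in both classes. Sertoli genes were uneven: of 10, 6 could be tested, and 5 of these were called higher in feeder cells and 1 in germ cells. Sox9, a factor of Sertoli cells and of cartilage, had 22.4 and 20.3 CPM in germ cells and 319 and 331 CPM in feeder cells (log2 -3.93), Rhox5, a homeobox gene, 11.5 and 6.402 against 133 and 127 CPM, and Clu, clusterin, 6.81 and 4.47 against 53.99 and 50.05 CPM. Gata4 and Inha were also called higher in feeder cells. Amh, Dhh, Fshr and Cst12, those of the list that could not be tested, were each at or below 0.5 CPM in both classes. Wt1 was on the germ side at 3.99 and 4.06 against 1.503 and 0.983 CPM. Of 7 Leydig genes only Star could be tested (5.897 and 6.13 against 4.28 and 3.64 CPM, not called), and the other 6 were at or below 0.6 CPM. The 8 macrophage genes stayed at or below 10.2 CPM in feeder cells and 5.03 CPM in germ cells, and of the 4 that could be tested 2 (Lyz2 and Aif1) were called higher in feeder cells. Among 8 endothelial genes, of which 6 could be tested and 3 (Kdr, Vwf and Pecam1) were called higher in germ cells, Egfl7, a secreted protein, was the highest at 41.9 and 44.4 against 60.6 and 55.9 CPM, and Kdr, a VEGF receptor, was called on the germ side at 3.57 and 3.58 against 0.116 and 0.58997 CPM. Of 6 peritubular myoid genes 3 were called on the feeder side, 1 (Cnn1) on the germ side and 2 in neither, with Acta2 at 0.831 and 0.482 against 5.09 and 4.82 CPM. Whether somatic cells of the testis are among the feeder class was not tested.

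Of 14 genes of stress and handling, 7 (50.0%) were called higher in feeder cells and 2 (14.3%) in germ cells, beside 27.9% of all genes tested in each direction. Mt1, metallothionein 1, had 639 and 525 CPM in germ cells and 3020.4 and 2822 CPM in feeder cells (log2 -2.33), Jun, an immediate early factor, 41.5 and 38.5 against 499 and 527 CPM, and Ddit3, of the unfolded protein response, 13.8 and 13.01 against 116 and 106 CPM. Hspa1a, an inducible heat shock gene, was on the germ side at 3.32 and 3.24 against 0.347 and 0.098 CPM, and Egr1 was shared at 99.1 and 102 against 106 and 112 CPM. Their part in the differences above was not tested.

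Among the 9892 genes with at least 200 UMIs over both classes in each library, the 4 whose ratio differed most between the libraries were Nptx2 (log2 ratios 4.05 and 6.82 in vehicle 1 and vehicle 2), Tcl1 (3.98 and 5.81), Hoxa7 (-4.04 and -5.72) and Pax3 (-6.59 and -4.901). In each the lower class had few UMIs. Nptx2 had 8 and 1 UMIs in feeder cells and Pax3 3 and 12 in germ cells, so these differences rest on small counts. The direction was the same in both libraries for all 4.

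In EV 1, a library with another treatment that did not enter the test, 242 germ and 2644 feeder cells met the same rule, out of 4977 filtered barcodes. The germ cells of EV 1 held 350326 UMIs and its feeder cells 7183628, so a level in its germ cells often rests on a few UMIs. The classes of EV 1 were cut by the same 8 marker genes, so agreement in direction follows in large part from the cut. It is no independent support. A feeder gene could also reach the minimum of 50 UMIs used below through feeder cells alone. Of the called genes with at least 50 UMIs over both classes of EV 1, 1315 of 1316 on the germ side and 2898 of 3194 (90.7%) on the feeder side kept their direction. Of the 3194, 239 had 0 UMIs in the germ cells of EV 1, and for these the direction is fixed by the zero. The 296 feeder genes that did not had a median of 7 UMIs in the germ cells of EV 1. On library totals, the median log2 ratio of the 1316 germ genes was 1.98 in EV 1 and 1.83 and 1.85 in vehicle 1 and vehicle 2, and that of the 3194 feeder genes was -1.14 in EV 1 and -1.67 and -1.70 in the vehicle libraries. The 24 genes named above for their ratios kept their direction in EV 1, but on 0 to 4 UMIs in its feeder cells for the 12 germ genes and 0 to 15 UMIs in its germ cells for the 12 feeder genes. Because 0.5 UMI was added to unequal sums, a gene at 0 in both classes would score 4.36 there, and no ratio of the 12 germ genes in EV 1 is given for that reason. Pcdh7, with 15 and 6184 UMIs in germ and feeder cells of EV 1, stood at -4.28 beside -4.82 and -4.796 in the vehicle libraries, all on library totals. Feeder cells without a germ UMI and a fibroblast sum of 3 or more held 3.64 CPM of the 6 germ genes in EV 1 and 9.42 and 9.47 CPM in the vehicle libraries. Germ cells with a sum of 3 or more and no fibroblast UMI held 359 CPM of the 8 fibroblast genes in EV 1 and 194 and 180.2 CPM in the vehicle libraries. The part of treatment and of cell composition in this was not tested.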

How the data were processed

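Droplet libraries (10x Genomics) of 2 vehicle cultures were analysed, with 1 EV library for single values. Per the labels and the study's methods, the authors aligned reads to mm10 with GENCODE vM23 and counted UMIs with Cell Ranger 7.0.1. The matrices the authors deposited hold whole-number UMI counts of 32285 genes in each called cell barcode and were not normalized, and how strand was treated is not given in the sources used here. The expression of EV 2 was not analysed here. Vehicle 1 and vehicle 2 held 9291 and 9738 barcodes with 23686047 and 27444797 UMIs. Of these, 8896 and 9334 barcodes passed the study's limits on genes and mitochondrial UMIs (over 400 and under 4000 genes, under 10% mitochondrial UMIs). The study also removed possible doublets with DoubletFinder, a step not taken here. Any 2 libraries shared at most 22 barcodes. Cells were assigned by the marker sums given in the report, and doublets were left in, with Scrublet (scanpy 1.11.5, 0.8% per 1000 cells; 633 and 697 vehicle cells) as an alternative.

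UMIs were summed per library and class, and the 4 sums were tested with edgeR 4.0.16 (R 4.3.3; filterByExpr, TMM, quasi-likelihood F test, library as a block, Benjamini-Hochberg over 16667 genes), with the study's limits for a differential gene. The 8 marker genes counted towards library sizes but were left out of the test. Each gene has 1 residual degree of freedom, and the common dispersion was 0.00031, so p-values add little to the size of the difference. Pairing by library follows from the design, as both classes of a pair come from 1 library. The members, lists and limits were chosen with earlier results of these data known, and lists are described without set tests, to be read against the percentage of all genes called. Named genes are list members, the 12 per direction with the largest smaller-of-2 ratio (at least 200 UMIs in the higher class of each library; 0.5 UMI added), the 6 per direction with the largest difference in CPM, and the 4 whose ratio differed most between libraries (at least 200 UMIs over both classes in each library). C1ql1, Emp1 and the Y-linked genes outside the list are named or drawn for their values alone. Shares of cells with a UMI were taken after thinning to 1000 UMIs, which left out 149 and 115 shallower germ cells and 89 and 56 feeder cells. On counts simulated for this comparison (16066 genes), 92 of 98 genes changed by 1.5 on the log2 scale and 96 of 96 changed by 3 were called, as were 2 of 15872 unchanged genes. That simulation used the common dispersion for every gene and changed only 200 genes, up and down alike. It therefore gives no error rate for the real data, where 55.8% of the genes tested were called. A pair of genes of the housekeeping list is not reported here, and its counts leave them out. Symbols carried by 2 rows of the files (Aldoa, Ddit3) are given by the row that was tested. Alternatives were library totals, DESeq2 1.42.0 size factors and its Wald test, no block, no filter on low counts, stricter marker rules, a limit of under 8000 genes, a depth window, removed doublets, and each library alone.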

Additional observations from a re-analysis of the deposited data

Results flagged for a closer look

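Peg3, an imprinted zinc finger gene, went the other way in EV 1. On library totals, its log2 ratio of germ to feeder was -1.06 and -0.94 in the 2 vehicle libraries and 0.41 in EV 1, where it had 29 UMIs in germ cells and 455 in feeder cells. It was 1 of 296 genes, of 3194 called higher in feeder cells with at least 50 UMIs in EV 1, that changed direction there. The difference between the arms was not tested, since EV 1 was the only library of its arm analysed here and EV 2 was not.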

How the results depend on the processing

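Counts of called genes stayed within 1.5 times under every alternative that was run: from 4122 (DESeq2 test) to 5866 (library totals) for germ cells and from 3679 (library totals) to 5282 (no filter on low counts, 26453 genes) for feeder cells. Each library alone put 4598 to 4623 genes past a log2 ratio of 1 and 4611 to 4671 past -1, with no test. Without the replicate block, that is without pairing by library, 4653 and 4642 genes were called. The germ share of filtered barcodes moved from 55.5% to 47.6% with a marker minimum of 3, 42.5% without any UMI of the other class and 68.3% in the depth window of 1500 to under 4000 UMIs, and the feeder share moved from 27.8% to 24.3%, 24.2% and 20.6%, and to 28.6% without doublets. The germ-to-feeder ratio of UMIs per cell was 0.528, 0.547, 0.536 and 0.535 with a marker minimum of 3, no UMI of the other class, a limit of under 8000 genes and doublets removed. On library totals, the background in the other class fell from 4.197% to 1.98% and 2.83% (germ genes), from 3.45% to 1.32% and 2.34% (Y-linked genes) and from 12.3% to 11.0% and 11.2% (fibroblast genes) without any UMI of the other class and without doublets. Of 192 named genes that were tested, 173 kept their direction and side of the limit under each of the 12 alternatives that gave a value for them. Those whose direction changed were near 0: with library totals Itga6 (0.29), Fgfr2 (0.37), Dnmt3a (0.22), Id4 (0.0283) and Egr1 (0.27), with a marker minimum of 3 Fgfr2 (0.0764) and Gins2 (-0.0306), without the filter Fgfr2 (0.0544), and in the depth window Lifr (-0.17) and Egr1 (0.12). The cause was not tested, except that library totals lift every gene by the median shift of 0.38. With 2 libraries, depth limits genes under about 1 CPM, where few UMIs stand behind a level.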

Other observations

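Barcodes that met neither rule were not blank. Those without any UMI of the 8 marker genes (559 and 527 in vehicle 1 and vehicle 2, median 1205 and 1257 UMIs) held 189.7 and 137 CPM of the 6 germ genes and 902 and 1008 CPM of the 8 fibroblast genes, between the levels of germ and feeder cells for both. Tied barcodes held 292 and 309 CPM of the 6 germ genes and 808 and 747 CPM of the 8 fibroblast genes.

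By annotated gene type, long intergenic noncoding RNAs leaned to the feeder side. Of 817 tested, 341 (41.7%) were called higher in feeder cells and 263 (32.2%) in germ cells, against 27.9% in each direction over all genes tested. Bidirectional promoter noncoding RNAs leaned the other way, with 39 of 112 (34.8%) called higher in germ cells and 19 (17.0%) in feeder cells. Genes called higher in feeder cells held 43.7% and 43.9% of feeder UMIs, and genes called higher in germ cells held 23.3% and 23.95% of germ UMIs.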
